A study of Mus musculus with 4 samples.

Results

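Spinal neuropeptide precursors are a set of 10 genes whose protein products are cut into short signalling peptides, and the set was defined by name. They were SST, NPY, PENK, PDYN, TAC1, TAC2, CCK, NTS, VIP and ADCYAP1, and all 10 were listed at both time points, among 14718 genes listed at either. Neurons cut these precursors in the secretory pathway, store the peptides in dense-core vesicles and release them mainly during strong or repeated firing, after which the peptides act on G protein-coupled receptors over longer distances than a synapse. In the dorsal horn, the precursors mark classes of interneurons that shape touch, itch and pain. SST, TAC1, TAC2, CCK and NTS are made largely by excitatory interneurons, NPY and PDYN mostly by inhibitory ones, and PENK by both.

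RNA-seq was run on spinal cord segments that held the lesion, from male targeted replacement mice in which the human ApoE3 or the human ApoE4 form takes the place of mouse ApoE at its own locus. The SCI was a contusion with a force of 50 kdyne in every mouse. Tissue was taken at 7 or 21 dpi, which gave 4 groups: ApoE3 and ApoE4 at 7 dpi, and ApoE3 and ApoE4 at 21 dpi. No uninjured group was analysed here, so no level could be set against that of intact cord. Each group stood for 3 mice by the methods but holds 1 value per gene, so the differences computed here could not be set against the spread between mice. The p-values and q-values deposited by the authors were not used here, and no test was run. Values are FPKM, fragments normalised to transcript length and to sequencing depth, and the number of reads behind each value is unknown. Ratios between genotypes are log2((ApoE3 FPKM + 1)/(ApoE4 FPKM + 1)), so a positive ratio means higher in ApoE3, and folds are on the same scale. The added 1 makes differences of weakly expressed genes look smaller than they are. A gene was counted as different at a fold of at least 1.3, a log2 ratio of 0.38. The comparison is named ApoE3 versus ApoE4 in the table, and its fold changes divide the first value by the second in that order. The column numbers would instead pair the values the other way round. Every genotype direction given here would be the opposite under that reading.

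The precursors differed widely in level, and their order was much the same in every group. PENK, the enkephalin precursor, stood at 301 FPKM in ApoE3 against 268 in ApoE4 at 7 dpi, and at 524 in ApoE3 and 763 in ApoE4 at 21 dpi. It was the most abundant of the 10 in each of the 4 groups. ADCYAP1, which encodes PACAP, stood at 212 FPKM in ApoE3 against 161 in ApoE4 at 7 dpi, and at 249 and 451 at 21 dpi. SST, the somatostatin precursor, stood at 153 FPKM in ApoE3 against 131 in ApoE4 at 7 dpi, and at 473 and 636 at 21 dpi. ADCYAP1 was thus above SST in both genotypes at 7 dpi and below it in both at 21 dpi. CCK, the cholecystokinin precursor, ranked next in all 4 groups, at 71.7 FPKM in ApoE3 against 58.3 in ApoE4 at 7 dpi and at 192 and 290 at 21 dpi. VIP, the precursor of vasoactive intestinal peptide, had the lowest level in every group, between 6.70 and 20.8 FPKM. None of the 10 was listed at 0 in any group.

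**Figure D1:**
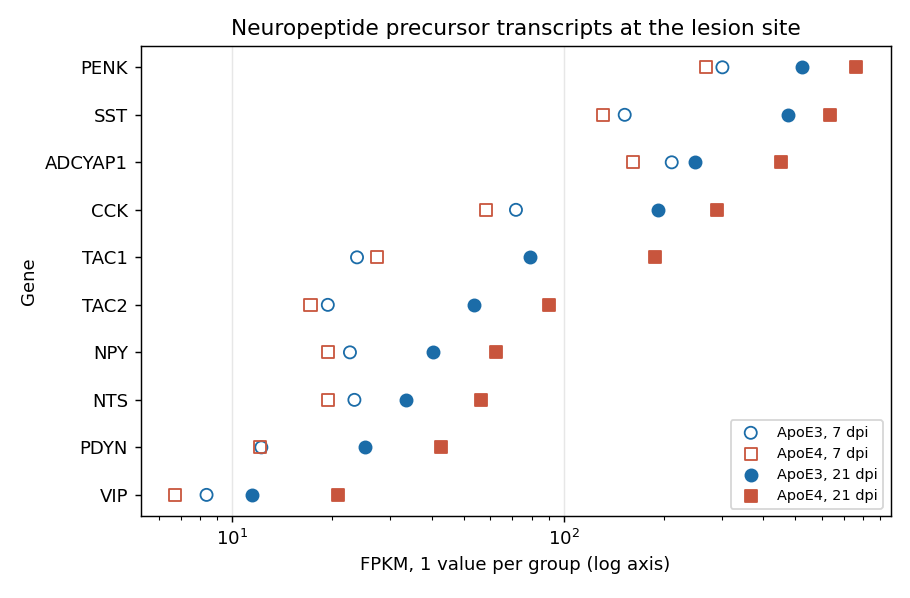
FPKM of the 10 precursors on a log axis, with 1 point per group (open symbols 7 dpi, filled symbols 21 dpi, circles ApoE3, squares ApoE4). For all 10 genes both points of 21 dpi lie to the right of both points of 7 dpi, and the point of ApoE4 at 21 dpi lies farthest right.

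Several of these genes are textbook targets of the cAMP response element (CRE), a short motif first worked out in the SST promoter, so the stretch before the start of transcription is shown for 4 members. The sequences are the 120 bases upstream of the start in RefSeq for GRCm38.p6, where 9 of the 10 members matched an entry and PENK did not. The motifs searched, on both strands of the window from 250 bases before to 50 after the start, were the full CRE, TGACGTCA, and its first part, TGACG, which lies within the full motif. Capitals mark the full CRE in SST, the shorter motif on the opposite strand in TAC1, and the 10 bases that VIP and ADCYAP1 share around the shorter motif. The segments are chr16:23890845-23890964 on the minus strand for SST, and chr6:7554941-7555060, chr10:5639098-5639217 and chr17:93198897-93199016 on the plus strand for TAC1, VIP and ADCYAP1.
SST: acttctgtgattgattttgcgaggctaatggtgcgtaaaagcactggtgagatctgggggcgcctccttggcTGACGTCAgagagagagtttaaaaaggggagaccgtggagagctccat
TAC1: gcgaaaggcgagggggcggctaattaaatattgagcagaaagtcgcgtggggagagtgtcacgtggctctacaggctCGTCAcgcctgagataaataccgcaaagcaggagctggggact
VIP: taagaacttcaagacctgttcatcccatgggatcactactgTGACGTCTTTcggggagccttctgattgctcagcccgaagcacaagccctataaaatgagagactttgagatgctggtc
ADCYAP1: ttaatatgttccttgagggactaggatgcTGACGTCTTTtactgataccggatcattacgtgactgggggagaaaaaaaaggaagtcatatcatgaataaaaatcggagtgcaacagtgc
The full CRE was found in SST alone of the 9, where it begins 48 bases before the start, and in 1.79% of all 32851 promoter windows. The shorter motif was found in the first window of 6 of the 9 members, SST, TAC1, CCK, NTS, VIP and ADCYAP1, and in 20.8% of all windows. It was not in the windows of NPY, PDYN or TAC2. The run that VIP and ADCYAP1 share began 79 bases before the start of VIP and 91 before that of ADCYAP1, and 0.07% of all windows hold it on either strand. Its length is not particular to this pair, since the windows of SST and VIP share a run of 13 bases and those of TAC2 and CCK, NTS and ADCYAP1, and NPY and CCK share runs of 10. At 21 dpi, TAC1 and SST, with the largest and the smallest difference between genotypes, both hold the shorter motif. NPY, PDYN and TAC2, which do not, had log2 ratios of -0.62, -0.73 and -0.74. At 7 dpi, SST, CCK, NTS, VIP and ADCYAP1, which hold it, had log2 ratios from 0.216 for SST to 0.39. NPY, TAC2 and PDYN had 0.207, 0.16 and 0.016, so SST and NPY were nearly equal, and TAC1, which holds the motif, had -0.19. Whether the motif goes with the ratio was not tested. A match describes the letters in the window and is not evidence of a bound site.

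At 7 dpi, the genotypes differed little. The median log2 ratio of the 10 precursors was 0.21, against 0.0018 for all genes with a mean of at least 1 FPKM, and 9 of the 10 were higher in ApoE3 by some amount, as were 50.5% of all genes. ADCYAP1 alone reached the fold of 1.3, at a log2 ratio of 0.39 toward ApoE3, and no precursor reached it toward ApoE4. Of all genes, 3.78% passed that fold toward ApoE3 and 4.76% toward ApoE4, so 1 of 10 is a small count to set beside them. The ratios of SST (0.22), CCK (0.29), NTS (0.25) and VIP (0.28) all lay between those of PDYN, which was nearly equal in both genotypes, and ADCYAP1. PDYN, the dynorphin precursor, stood at 12.2 FPKM in ApoE3 against 12.1 in ApoE4. TAC1, the precursor of substance P and neurokinin A, was the exception to the direction, at 23.8 FPKM in ApoE3 against 27.3 in ApoE4. Its log2 ratio of -0.19 stood below the fold. The list of pan-neuronal genes, such as the synaptic gene SNAP25, moved in the same direction, with 14 of 14 listed genes higher in ApoE3 and a median of 0.24. Relative to that median, 6 of the 10 precursors had a negative ratio. In lesion tissue, fewer neurons and less RNA per neuron cannot be told apart.

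At 21 dpi, all 10 precursors were higher in ApoE4, and all 10 passed the fold of 1.3. Their median log2 ratio was -0.73, and that of all genes was -0.42. Most genes shared the direction, since 93.8% of all genes were higher in ApoE4 by some amount, 58.9% passed the fold toward ApoE4 and 2.01% passed it toward ApoE3. The count of 10 of 10 therefore has to be read against a table that was shifted as a whole. After the median of all genes was subtracted, all 10 precursors still had a negative value, with a median of -0.31, and 3 passed the fold toward ApoE4, TAC1, ADCYAP1 and VIP. The same subtraction left 8.06% of all genes past the fold toward ApoE4 and 7.46% toward ApoE3.

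TAC1 stood out from the others at 21 dpi, at 78.8 FPKM in ApoE3 against 188 in ApoE4. That is a fold of 2.37, or a log2 ratio of -1.24, and it was -0.82 after the shift of all genes was removed. TAC1 alone of the 10 passed a fold of 2, and it was the precursor that had leaned toward ApoE4 at 7 dpi already. ADCYAP1, at 249 FPKM in ApoE3 against 451 in ApoE4, followed with a fold of 1.81 and a log2 ratio of -0.85. VIP, at 11.5 and 20.8 FPKM, had a fold of 1.75 and a log2 ratio of -0.81. PACAP and VIP act on overlapping receptors, and both precursors had leaned toward ApoE3 at 7 dpi. For ADCYAP1 the fold of 1.3 was passed toward ApoE3 at 7 dpi and toward ApoE4 at 21 dpi, a combination seen in 2.45% of the 10876 genes listed at both time points. Among other neuronal genes, SNAP25, GAD1, the glycine transporter gene SLC6A5 and CHAT, which makes acetylcholine, showed the same combination. After the shift of all genes was removed, ADCYAP1 still passed the fold at both time points, with 0.39 and -0.43, whereas these 4 did not pass it at 21 dpi. Other neuronal genes came close on that scale, MAP2 with 0.37 and -0.37, and the cholinergic gene SLC18A3 with 0.31 and -0.49. The share of 2.45% is for ratios before that removal. The ratio of ADCYAP1 at 7 dpi was just past the fold, and relative to the median of the neuron list it was 0.15, short of it.

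The ratios of the other 7 precursors ran from -0.74 to -0.43, and that of VIP was close to TAC2 among them. TAC2, the neurokinin B precursor, stood at 53.6 FPKM in ApoE3 against 90.0 in ApoE4 at 21 dpi, with a log2 ratio of -0.74. PDYN, at 25.1 and 42.5 FPKM, had -0.73, and NTS, the neurotensin precursor, at 33.5 and 56.4 FPKM, also had -0.73. These precursors of excitatory and inhibitory interneurons thus had nearly equal ratios. NPY, the neuropeptide Y precursor, stood at 40.4 FPKM in ApoE3 against 62.6 in ApoE4, with a log2 ratio of -0.62. CCK had -0.59 and PENK -0.54. SST had the smallest difference, -0.43, which equals the shift of all genes to within 0.01 and left -0.0030 after that shift was removed. By its value SST therefore kept pace with the table as a whole, whereas the other 9 lay beyond its shift, TAC1, ADCYAP1 and VIP the farthest.

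**Figure D2:**
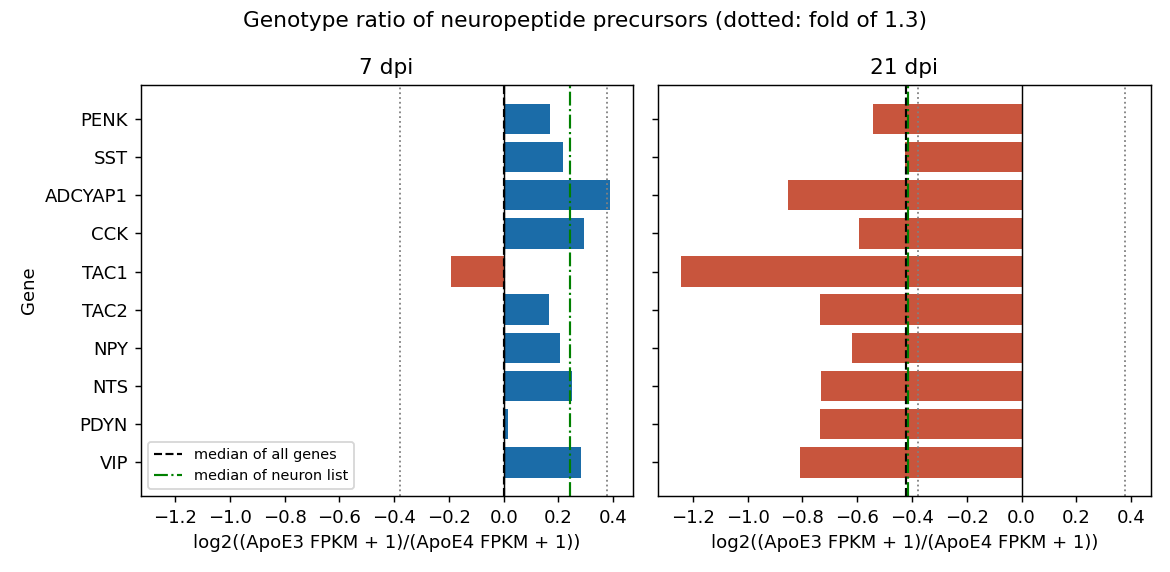
Log2 ratio of ApoE3 to ApoE4 for each precursor at 7 dpi (left) and 21 dpi (right), 1 ratio per gene, with the fold of 1.3 dotted, the median of all genes dashed and the median of the neuron list dash-dotted. At 7 dpi the bars lie between -0.19 and 0.39, and at 21 dpi between -1.24 and -0.43, where the bar of SST ends at the median of all genes.

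Between 7 and 21 dpi, the precursors were higher at the later time point in both genotypes. The values of the time points were normalised in separate comparisons of genotypes, so levels are set side by side with the shift of all genes. In ApoE3, 9 of 10 precursors passed the fold of 1.3 toward 21 dpi, with ADCYAP1 short of it at a log2 ratio of 0.23, and the median was 0.89, while 31.3% of all genes passed and their median was 0.089. In ApoE4, 10 of 10 passed and the median was 1.68, while 59% of all genes passed and their median was 0.53. The difference between time points in the precursors thus exceeded that of all genes in each genotype. It was close to that of the neuron list, whose median was 0.79 in ApoE3 and 1.64 in ApoE4. Other lists differed between the time points in either direction. Microglia and macrophage genes had medians of -1.07 in ApoE3 and -0.40 in ApoE4, and fibroblast genes had -2.02 and -3.07. Astrocyte genes had -0.65 and 0.25, Schwann cell genes 1.51 and 0.56, and skeletal muscle genes -0.99 and 3.53. The part of a changed mix of cells in the levels of the precursors over time was not tested.

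In ApoE3, the precursors fell into 3 sets by their distance from the median of the neuron list. In ApoE4, the lower sets were not clearly apart. SST, TAC1, TAC2 and CCK had ratios of 21 to 7 dpi of 1.63, 1.69, 1.42 and 1.41 in ApoE3, and of 2.27, 2.74, 2.32 and 2.30 in ApoE4. These 4, which are made largely by excitatory dorsal horn cells, lay above that median by at least 0.62 in each genotype. Single neuron genes spanned a wide range around it, from -0.52 to STMN2 with 1.503 in ApoE3 and from 0.10 to 2.14 in ApoE4, so CCK and TAC2 stayed within the range of the list in ApoE3. NPY, PENK and PDYN, at 0.81, 0.80 and 0.98 in ApoE3 and 1.64, 1.51 and 1.73 in ApoE4, lay near it. NTS, VIP and ADCYAP1 lay below the median in both genotypes, with 0.50, 0.41 and 0.23 in ApoE3. In ApoE4 they stood close together, from 1.48 for ADCYAP1 and 1.49 for NTS up to VIP, and PENK was about as far below the median there. NTS is an excitatory marker too, so the division does not follow transmitter type throughout. For ADCYAP1 the level in ApoE3 was similar at both time points, at 212 and 249 FPKM, while that in ApoE4 went from 161 to 451 FPKM.

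**Figure D3:**
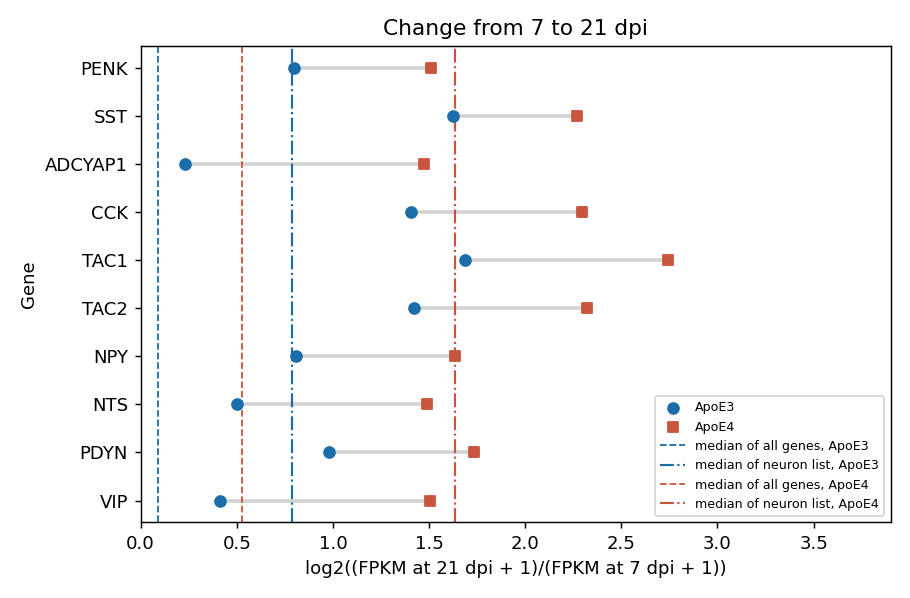
Log2 ratio of 21 to 7 dpi for each precursor in ApoE3 (circles) and ApoE4 (squares), with the medians of all genes (dashed) and of the neuron list (dash-dotted) in the colour of the genotype. SST, CCK, TAC1 and TAC2 lie to the right of the neuron list's median in both genotypes, and ADCYAP1 has the lowest ratio in ApoE3, 0.23.

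Shares among the 10 precursors do not depend on how a group was scaled. The summed level of the 10 was 847 FPKM in ApoE3 against 721 in ApoE4 at 7 dpi, and 1681 and 2601 at 21 dpi. As a part of all listed FPKM this was 0.0507% and 0.0432% at 7 dpi, and 0.111% and 0.127% at 21 dpi, so the order of the genotypes was the same as for the ratios. PENK made up 35.5% of the sum in ApoE3 and 37.1% in ApoE4 at 7 dpi, and 31.2% and 29.4% at 21 dpi. SST went from 18.0% and 18.2% to 28.2% and 24.5%, and ADCYAP1 from 25.0% and 22.4% to 14.8% and 17.3%. The exchange of places between SST and ADCYAP1 was thus present in both genotypes. The share of TAC1 was 2.81% in ApoE3 and 3.78% in ApoE4 at 7 dpi, and 4.69% and 7.23% at 21 dpi. It was higher in ApoE4 at both time points, 1.35 times at 7 dpi and 1.54 times at 21 dpi. NPY kept almost the same share in both genotypes, 2.67% and 2.70% at 7 dpi and 2.40% and 2.41% at 21 dpi.

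**Figure D4:**
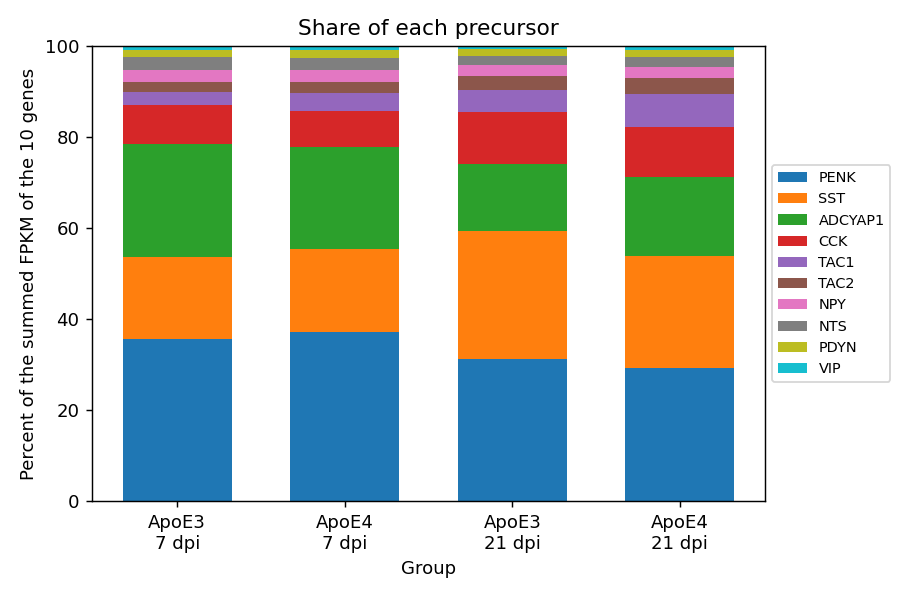
Percent of the summed FPKM of the 10 precursors in each group, stacked from PENK at the bottom to VIP at the top. The band of TAC1 is widest in ApoE4 at 21 dpi (7.23%), and SST takes more and ADCYAP1 less of the sum at 21 dpi than at 7 dpi in both genotypes.

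Other neuropeptide precursors included genes of both directions. At 21 dpi, 9 of 16 listed passed the fold toward ApoE4, a share near the 58.9% of all genes, and 1 toward ApoE3, with a median of -0.59, or -0.16 after the shift of all genes was removed. CALCB, which encodes the beta form of the calcitonin gene-related peptide, stood at 23.5 FPKM in ApoE3 against 60.6 in ApoE4 at 21 dpi, a log2 ratio of -1.33 and thus near that of TAC1. CRH, the corticotropin-releasing hormone precursor, stood at 4.83 and 15.2 FPKM, with -1.47. NPB, SCT and NMU had -1.26, -1.24 and -1.08, so a ratio of about the size of TAC1 was also seen in other precursors. CALCA, which encodes the alpha form and is often made with TAC1 in the same sensory neurons, stood at 377 FPKM in ApoE3 against 269 in ApoE4 at 7 dpi and at 702 and 830 at 21 dpi. Its ratio was 0.48 at 7 dpi and -0.24 at 21 dpi, and so CALCA leaned to ApoE3 once the shift of all genes was removed (0.18), opposite to TAC1. GAL, the galanin precursor, stood at 34.3 and 60.8 FPKM at 21 dpi, with a ratio of -0.81. NMB, the neuromedin B precursor, was the 1 that passed the fold toward ApoE3, at 25.9 FPKM in ApoE3 against 19.1 in ApoE4, with a ratio of 0.42 at 21 dpi and 0.54 at 7 dpi. NPFF, an opioid-modulating precursor of the superficial dorsal horn, stood at 7.83 and 10.5 FPKM at 7 dpi and 28.6 and 26.9 at 21 dpi. Unlike any of the 10, NMB and NPFF were therefore not higher in ApoE4 at 21 dpi.

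Receptors for these peptides had a median ratio smaller in size than that of the precursors at 21 dpi but a wider range, from -1.25 to 1.09. Of 17 listed at 21 dpi, 10 passed the fold toward ApoE4, a share like the 58.9% of all genes, and 1 toward ApoE3, and the median of -0.43 equalled the shift of all genes to within 0.01. OPRM1, the mu opioid receptor that enkephalins act on, stood at 36.5 FPKM in ApoE3 against 30.7 in ApoE4 at 7 dpi and at 19.4 and 8.53 at 21 dpi. OPRM1 was thus lower at 21 dpi than at 7 dpi in both genotypes, and its genotype ratio of 1.09 at 21 dpi pointed to ApoE3 while PENK, with -0.54, pointed to ApoE4. OPRK1, the kappa receptor for dynorphins, stood at 6.30 and 9.66 FPKM at 21 dpi, with a ratio of -0.55, or -0.12 after the shift of all genes was removed. TACR1, the substance P receptor, stood at 11.2 FPKM in ApoE3 against 15.3 in ApoE4 at 21 dpi, a ratio of -0.42, about the shift of all genes. The large difference in TAC1 had no counterpart of that size in its receptor. VIPR2, a receptor for both VIP and PACAP, stood at 3.04 FPKM in ApoE3 against 6.36 in ApoE4 at 7 dpi and at 6.78 and 17.5 at 21 dpi. It was the only listed receptor past the fold at 7 dpi, with -0.87, and it had -1.25 at 21 dpi, so it was higher in ApoE4 at both time points whereas the ratios of VIP and ADCYAP1 had opposite signs at the 2 time points. ADCYAP1R1, the PACAP-preferring receptor, stood at 430 and 669 FPKM at 21 dpi, with a ratio of -0.64. NPY5R, a receptor for NPY, stood at 5.66 and 12.5 FPKM, with -1.02, and SSTR1, a somatostatin receptor, at 2.93 and 5.24 FPKM, with -0.67. NPY2R had -0.64. Other receptors for the same peptides were short of the fold, NPY1R at -0.15, SSTR2 at -0.27 and SSTR3 at -0.36. These became 0.28, 0.15 and 0.066 after the shift of all genes was removed. NTSR2, a neurotensin receptor that astrocytes also make, was the most abundant receptor in ApoE4 at 21 dpi, at 462 FPKM in ApoE3 against 755 in ApoE4.

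The genes that cut precursors and fill dense-core vesicles were also higher in ApoE4 at 21 dpi, as were 93.8% of all genes. Of 12 listed, 9 passed the fold toward ApoE4, as did 58.9% of all genes, and none toward ApoE3. Their median was -0.45, or -0.024 after the shift was removed, with 5 genes above the median of all genes and 7 below. As a list they thus lay close to the table as a whole. PCSK1, a convertase that makes the first cuts in many precursors, stood at 20.003 FPKM in ApoE3 against 13.0 in ApoE4 at 7 dpi and at 12.6 and 25.9 at 21 dpi. Like ADCYAP1, it passed the fold toward ApoE3 at 7 dpi (0.59) and toward ApoE4 at 21 dpi (-0.99), and relative to the neuron median it was short of the fold at 7 dpi (0.34). VGF, a granin-like vesicle protein that neuronal activity and injury induce, stood at 2012 and 1710 FPKM at 7 dpi and at 1610 and 3539 at 21 dpi, a ratio of -1.14 at the later time. CPE, the carboxypeptidase that trims the cut ends, stood at 706 and 1186 FPKM at 21 dpi, with -0.75. PCSK1N, which encodes an inhibitor of PCSK1, stood at 85.0 and 107 FPKM at 7 dpi and at 383 and 524 at 21 dpi, so it was higher at 21 dpi in both genotypes, as the precursors were. Peptidases that break down released peptides differed less, with 3 of 9 past the fold toward ApoE4, none toward ApoE3 and a median of -0.31 at 21 dpi. That is a smaller share than the 58.9% of all genes, and the median was 0.11 after the shift was removed.

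Markers of the cells that make these peptides were set beside them. Of 12 neuron genes listed at 21 dpi, 7 passed the fold toward ApoE4 and none toward ApoE3, with a median of -0.41, much as the 58.9% and -0.42 of all genes. SNAP25, the most abundant of them in that comparison, stood at 3366 FPKM in ApoE3 against 2545 in ApoE4 at 7 dpi and at 5336 and 7812 at 21 dpi, with ratios of 0.40 and -0.55. All 10 precursors lay below the neuron median at 21 dpi, with a median of -0.32 relative to it and TAC1 lowest at -0.83. Inhibitory transmitter genes, such as GAD1, which makes GABA, had 4 of 5 past the fold toward ApoE4 and a median of -0.56. Of the excitatory transmitter genes, SLC17A7, a vesicular glutamate transporter, was the 1 listed at 21 dpi, and it lay past the fold toward ApoE3, at 3.06 and 0.519 FPKM with a ratio of 1.42. That is the direction of the sensory ganglion genes given below. SLC17A6, another gene of that transmitter list, was listed at 7 dpi alone, at 59.6 FPKM in ApoE3 against 49.8 in ApoE4. Dorsal horn transcription factors had 4 of 8 past it toward ApoE4, below the share of all genes, and their median of -0.31 became 0.11 after the shift was removed. Genes induced by axon injury had 7 of 7 and a median of -0.67, or -0.25 after the shift was removed. CSRP3 had the lowest ratio of them, -2.14, at 0.373 FPKM in ApoE3 against 5.04 in ApoE4, and was not listed at 7 dpi.

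A ratio beyond that of the neuron list was not limited to the precursors, since the medians of 3 glial lists also lay beyond it toward ApoE4 at 21 dpi, where 58.9% of all genes passed the fold in that direction. Astrocyte genes, 6 of 6 listed, passed the fold toward ApoE4 with a median of -0.72, or -0.29 after the shift was removed, against -0.73 and -0.31 for the 10 precursors. Their sums were 10273 FPKM in ApoE3 and 18865 in ApoE4, led by GFAP at 8201 and 15313 FPKM. Microglia and macrophage genes, 4 of 4, had a median of -0.80, or -0.38 after the shift was removed, with sums of 498 and 936 FPKM, led by LYZ2 at 212 and 426 FPKM. Oligodendrocyte genes, 5 of 5, had a median of -0.54, or -0.12 after the shift was removed, with sums of 227664 and 320866 FPKM, led by MBP. The part of these cells in the ratios of the precursors was not tested.

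Markers of cells found mainly outside the intact cord differed strongly between the genotypes at 21 dpi, and not all in the direction of the precursors. All 11 listed sensory ganglion genes and all 6 Schwann cell genes analysed passed the fold toward ApoE3, with summed levels of 175 FPKM in ApoE3 against 39.1 in ApoE4 for the ganglion list and of 2204 and 1076 for the Schwann cell list. The most abundant ganglion gene in ApoE3 was AVIL, at 39.1 FPKM against 1.195 in ApoE4, SCN10A stood at 20.1 and 0.153 FPKM, and TRPV1 and MRGPRD were listed at 0 in ApoE4. The most abundant Schwann cell gene was PMP22, at 1970.0 and 992 FPKM. TAC1, ADCYAP1 and CALCA are also made by sensory ganglion neurons, and in FPKM all 3 were lower in ApoE3 than in ApoE4 at 21 dpi, although after removal of the shift of all genes CALCA was higher in ApoE3. Skeletal muscle genes, 4 of 4 listed, and liver genes, 5 of 5, passed the fold toward ApoE4. Of all genes, 2.01% passed it toward ApoE3 and 58.9% toward ApoE4. The sums were 26.5 FPKM in ApoE3 against 649 in ApoE4 for muscle, led by TNNT3 at 22.5 and 515 FPKM, with MYH4 listed at 0 in ApoE3, and 10.3 and 107 for liver, led by APOA2 at 5.38 and 59.2 FPKM. At 7 dpi, 3 sensory ganglion, 3 Schwann cell, 3 muscle and 0 liver genes were listed. A gene near 0 in 1 group, such as SCN10A in ApoE4 or MYH4 in ApoE3, may be listed only through the group where it is high. The counts past the fold in these lists may thus be partly set by which genes were listed. The part of these tissues in the ratios of the precursors was not tested.

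**Figure D5:**
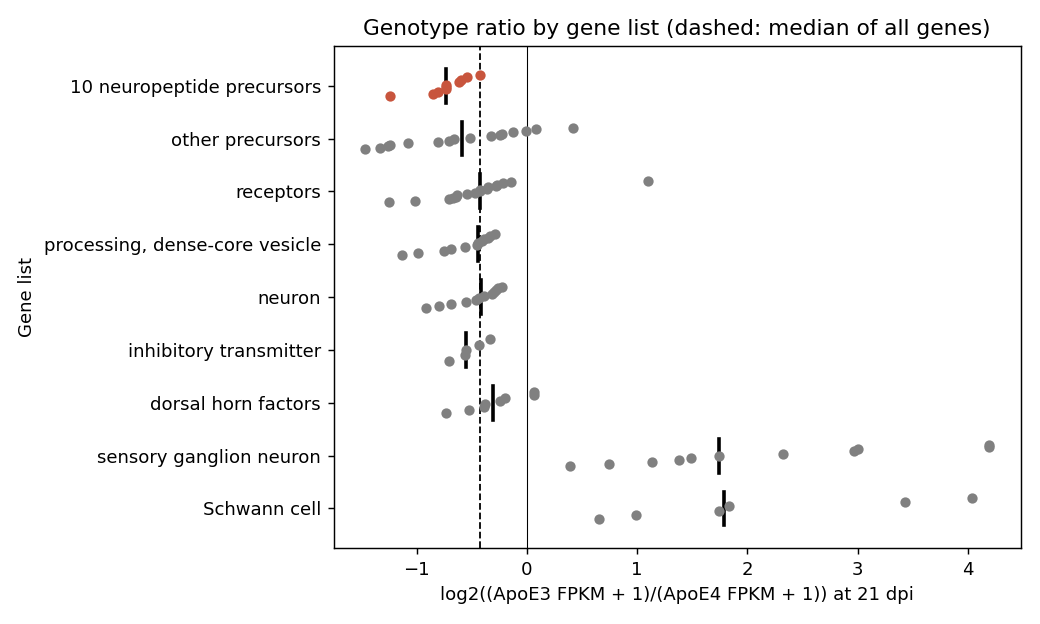
Log2 ratio of ApoE3 to ApoE4 at 21 dpi for every listed gene of 9 lists, 1 point per gene, with the list median as a bar and the median of all genes dashed. The 10 precursors lie at or below the median of all genes, from -0.43 to -1.24, while sensory ganglion and Schwann cell genes lie on the side of ApoE3.

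The pattern over the 4 groups was compared with that of 10861 genes by the distance between log2(FPKM + 1) values, each centred on its own mean. For SST the closest gene was RESP18, at a distance of 0.034, with 268 and 233 FPKM at 7 dpi and 811 and 1113 at 21 dpi. RESP18 encodes a protein of the regulated secretory pathway in endocrine cells and neurons. For TAC2 the closest gene was CCK, another of the 10, at a distance of 0.14, and NTS was the third closest to VIP, at 0.068. For PENK it was PNMAL2, at 0.011, and for NTS it was KCNG4, a voltage-gated potassium channel subunit, at 0.015. The closest genes to the others were RGS17 for NPY, GNG13 for CCK, MKKS for VIP, NADSYN1 for ADCYAP1 and a RIKEN cDNA gene for PDYN. TAC1 had no gene so near, since its closest, the retinol carrier RBP4, lay at 0.39, the largest such distance among the 10. With 4 values per gene, a short distance describes these groups and says nothing of shared control.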

How the data were processed

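Lesion segments of male ApoE3 and ApoE4 mice were sequenced with the TruSeq v2 kit, which does not mark strand, so reads from overlapping antisense genes cannot be told apart. The submitters' processing notes name STAR 2.5.4b, Bowtie2 2.1.10, SAMtools 0.1.7 and Cuffdiff 1.3.0. The genome build and annotation are not given in the sources used here. By the methods, reads were down-sampled to equal numbers before alignment, and 1 library, whose group is not named, aligned at a lower rate. The values deposited are FPKM with 1 added, 1 per group, and the added 1 was subtracted. The deposited tables also hold the authors' fold changes, log2 ratios, p-values and q-values. The fold changes served only to check the order of the genotypes, and the others were not used. No value column was left unused. The 3 symbols on more than 1 line were left out, and 1 gene of the Schwann cell list is not reported here.

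Log2 ratios used a pseudocount of 1, and a fold of at least 1.3 counted as different. Without replicates no test was run. The members and the 20 other gene lists were chosen with earlier results of these data known. Genes named were all members, genes of the lists past the fold at either time, the most abundant gene or a marker at 0 of a list, and the genes closest to a member. NPY1R, SSTR2, SSTR3 and SLC17A6 were named beside other genes of their lists although short of the fold. Alternatives were pseudocounts of 0.1 and 0.01, a minimum mean of 1 FPKM, subtraction of the median of all genes or of the neuron list, and folds of 1.5 and 2. Promoters came from RefSeq, GRCm38.p6. Python 3.11.15, numpy 2.4.6, pandas 2.3.3 and matplotlib 3.10.9 were used. The steps that gave the ratios and the share of all genes past a fold were tested on simulated data, and the other steps were not.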

Additional observations from a re-analysis of the deposited data

Results flagged for a closer look

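The genotype ratio of ADCYAP1 lay past the fold of 1.3 toward ApoE3 at 7 dpi and toward ApoE4 at 21 dpi, and the log2 ratio at 21 dpi minus that at 7 dpi was -1.24. PCSK1, the convertase gene, crossed in the same way, with a difference of -1.57. The neuronal genes SNAP25, GAD1, SLC6A5 and CHAT also passed the fold in opposite directions at the 2 time points. After the shift of all genes was removed, these 4 no longer passed it at 21 dpi, while ADCYAP1 and PCSK1 did. Relative to the median of the neuron list, ADCYAP1 and PCSK1 did not pass the fold at 7 dpi, with 0.15 and 0.34, while both still passed it toward ApoE4 at 21 dpi, with -0.44 and -0.57. Each value rests on 1 number per group, and the difference between the time points was not tested for any of these genes.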

How the results depend on the processing

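With pseudocounts of 0.1 or 0.01, or a minimum mean of 1 FPKM, all 10 precursors kept their direction and their side of the fold of 1.3 at both time points. Scaling changed more. At 21 dpi the count of precursors past the fold went from 10 to 3 after subtraction of the median of all genes and to 3 after that of the neuron list, and the median ratio became -0.31 and -0.32. At 7 dpi the median ratio became -0.0314 on the neuron scale, where TAC1 passed the fold toward ApoE4 and ADCYAP1 no longer passed. Folds of 1.5 and 2 left 8 and 1 precursors at 21 dpi, and 0 and 0 at 7 dpi. The median ratio of 21 to 7 dpi became 0.11 in ApoE3 and 0.046 in ApoE4 on the neuron scale. The cause of these shifts was not tested. TACR1 and the neuron list median, whose ratios at 21 dpi lay close to the shift of all genes, changed sign after subtraction of that shift, to 0.00022 and 0.0093. With FPKM alone, counting error cannot be given for any gene, low values such as those of VIP and VIPR2 included.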
